A study of Saccharomyces cerevisiae with 23 samples.

Results

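The genes described here carry the symbols MCM, ORC, RFA, RFC, RAD, MSH, MLH or POL followed by a number in the R64 annotation of Saccharomyces cerevisiae, and most of them copy or mend DNA. The symbol rule found 73 genes, each with 1 row among the 6334 features of the deposited table. All 73 had a value in every line. The rule reads names alone, so it also takes in POL5, a factor of ribosome biogenesis, MCM1, a transcription factor, the kinetochore genes MCM16, MCM21 and MCM22, and RAD61, which releases cohesin from chromosomes. It leaves out genes of the same processes with other names, and 30 of replication, 50 of repair and 12 of nucleotide supply were kept for comparison.

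The study profiled 23 mutation accumulation lines, whose labels run from 19-1 to 19-50 with some numbers missing, and the second number names a line below. In such an experiment parallel cultures of 1 strain pick up mutations with little selection against them. Every line was grown unsynchronized in YPD, a rich glucose medium, at 30 °C to an OD600 of about 1.0. It shared a 2-channel array with the reference strain YPS183, grown in the same medium to an OD600 of 1.1, with the line in the 555 dye and the reference in the 647 dye on every array. The lines formed a single group with 1 column each. Their ancestor was not analysed here, so a mean away from 0 cannot be told apart from a property of the reference. Which strain is on top of the ratio, and the base of the logarithm, are not stated in the labels. Values were read as log2. The words "positive" and "negative" give the deposited sign and do not say whether line or reference was higher. The design text speaks of 2 biological replicates per strain, without saying if the single column is their average, so the spread between lines holds line, culture and array differences together.

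The median of a line's column was between -0.02 and 0.02, and its SD between 0.25 and 0.58. The columns of lines 1 and 45 resembled each other most (r = 0.90 over all features, with 0 identical values), and those of lines 4 and 44 ran most strongly against each other (r = -0.64). Lines 1 and 45 carry separate labels and were kept as 2 lines, with their average as an alternative.

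A DNA molecule is copied once per cell cycle from origins that the origin recognition complex (ORC) marks and where the Mcm2-7 helicase is loaded. Replication protein A (RPA) then covers the unwound strands, the loader RFC sets the ring-shaped clamp PCNA, encoded by POL30, around DNA, and the polymerases alpha, delta and epsilon extend the new strands. Damage is mended by separate pathways for bulky lesions, broken ends and mismatched bases, and a checkpoint holds the cycle while this goes on. In budding yeast many genes of the copying machinery are transcribed in a burst as cells leave G1.

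**Figure D1:**
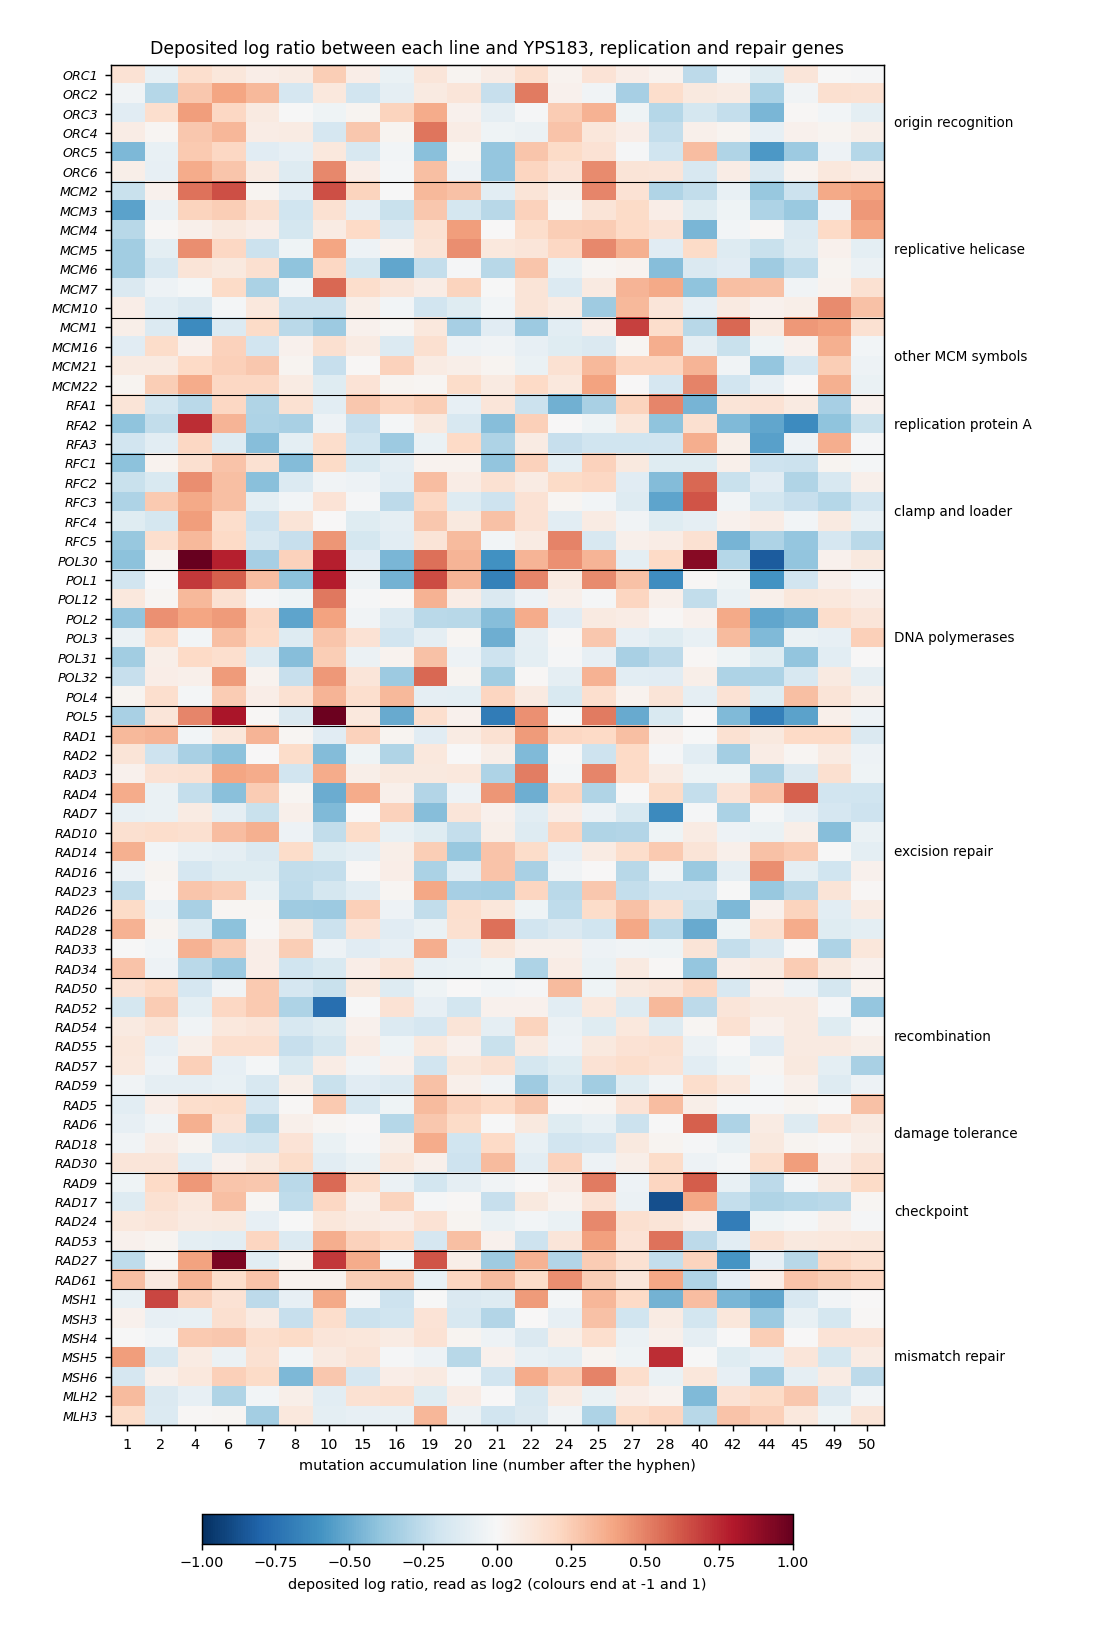
Deposited log ratio (colour, read as log2) of 70 of the 73 genes (rows, grouped by role) in the 23 lines (columns, in order of number). POL30 was highest in line 4 at 1.50 and lowest in line 44 at -0.83, and most other cells are pale. Over all 73 genes 82 of 1679 gene and line pairs (4.88%) differed by 0.5 or more from the other lines. The share over all features was 12.7%.

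Over the 23 lines the genes of replication and repair lay near 0. The highest mean was 0.18, for RAD61. The median of the 73 means was 0.01, against 0.00 for all features, and 42 means were positive and 31 negative. By limma, 2 of 73 genes (2.74%) passed the test of the mean against 0 (adjusted p under 0.05), RAD61 and RAD1, against 9.22% of all features. Both were positive, against 3.99% of all features called positive and 5.23% called negative. At an unadjusted p under 0.05 the count was 14 of 73 (19.2%), against 24.3% of all features.

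RAD61 (YDR014W), a cohesin-release factor whose loss makes cells sensitive to radiation, ran from -0.30 in line 40 through a median of 0.22 to 0.46 in line 24. It was positive in 20 of 23 lines, and its mean was 0.18 ± 0.04 (SE, n = 23, limma adjusted p = 0.00376). RAD1 (YPL022W), the subunit of the nuclease that cuts on the 5′ side of a bulky lesion, ran from -0.15 in line 50 through a median of 0.15 to 0.43 in line 22. It was positive in 18 of 23 lines, with a mean of 0.13 ± 0.04 (limma adjusted p = 0.0181). Its nuclease partner RAD10 had a mean of -0.02 ± 0.04 and was positive in 10 lines. The SD over lines was 0.17 for RAD61 and 0.16 for RAD1. With 1 dye orientation a dye effect cannot be told apart from a difference in RNA.

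The count of called genes depended on how arrays were weighted. With array weights 11 genes were called, 7 positive and 4 negative, and over all features 1298 were called against 584 with equal weights. The added genes included MCM22, POL4, RAD53 and MSH4 on the positive side and MCM6, RFA2 and RAD59 on the negative side, with unweighted means between -0.14 and 0.11. A further gene joined RAD61 and RAD1 when any of 6 lines was left out, among them RFA2 without line 4, MSH4 without line 22, POL4 without line 24 or 40, and MCM22 without line 42.

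The spread between lines was low for most of these genes. The median SD over lines was 0.21 for the 73 genes, against 0.26 for all features, and 19 of the 73 lay above that value for all features. Only 3 had an SD over 0.4: POL30, POL5 and POL1. Spot brightness was not analysed here, so a low SD cannot be told apart from a ratio compressed by a dim spot.

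**Figure D2:**
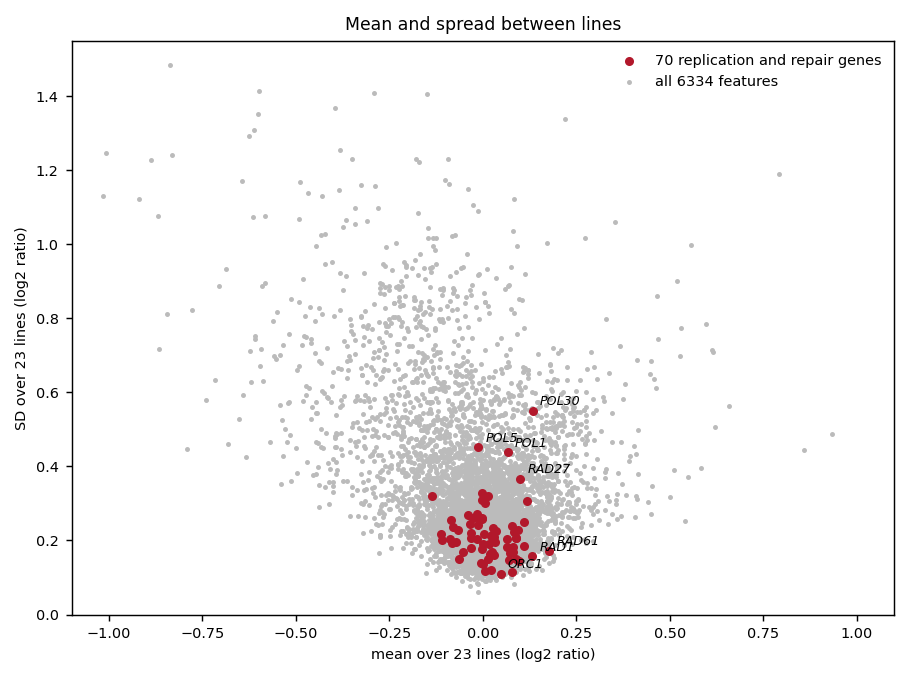
Mean (horizontal axis) and SD (vertical axis) over 23 lines of 70 of the 73 genes (red) and of all 6334 features (grey), in log2 units, with the horizontal axis ending at -1.1 and 1.1. The red points sit low and near 0, with POL30 at an SD of 0.55 on top.

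The 6 origin recognition genes had SDs from 0.11 to 0.26, none above the median of all features, and their median SD was 0.21, against 0.21 for the 73 genes. ORC1 (YML065W), the largest subunit and an ATPase, had the lowest SD of the 73 genes at 0.11, with values from -0.27 in line 40 through 0.07 to 0.24 in line 10. ORC5, another ATPase subunit, varied most, from -0.57 in line 44 through -0.07 to 0.31 in line 40. Means ran from -0.09 for ORC5 to 0.09 for ORC6, and limma called none of the 6, with 1 (ORC4) at an unadjusted p under 0.05. All 15 pairs of ORC genes correlated positively over the 23 lines, with a mean pairwise r of 0.35.

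The helicase genes MCM2 to MCM7 and MCM10, grouped with them here, had SDs from 0.19 to 0.31. MCM2 varied most, from -0.38 in line 44 through 0.05 to 0.65 in line 10. Their means lay between -0.11 for MCM6 and 0.12 for MCM2, and limma called none of the 7, with MCM6 at an unadjusted p of 0.0202. The 6 ring subunits varied together, with all 15 pairs positive and a mean pairwise r of 0.46, highest for MCM2 and MCM6 (0.68) and lowest for MCM6 and MCM7 (0.08). Highs and lows were not in the same lines for every subunit. MCM4 and MCM7 were lowest in line 40 (-0.45 and -0.40), where MCM5 was at a positive value, and MCM3 and MCM5 were lowest in line 1 (-0.54 and -0.35).

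MCM10 followed the ring subunits little. Its r was -0.38 with MCM5, -0.16 with MCM2, 0.05 with MCM7, 0.07 with MCM3, 0.09 with MCM6 and 0.22 with MCM4. With the leading component removed it was 0.45 with MCM6 and 0.43 with MCM3. Its highest value was 0.47 in line 49, against -0.35 to 0.32 in the other lines. MCM10 is the single gene of the 73 on chromosome IX. The median difference of all features of that chromosome from the other lines was 0.31 in line 49, the single chromosome and line with a shift of 0.3 or more, and 0.26 in line 50. The difference of MCM10 in line 49 was 0.48 ± 0.18 (SE, limma adjusted p = 0.769) and in line 50 it was 0.29 ± 0.20 (limma adjusted p = 1.00), so neither was called. Of the comparison genes on the same chromosome, SSL2, a TFIIH helicase gene of nucleotide excision repair, and CSM2 were highest in line 49, at 0.55 and 0.41. The others were highest elsewhere: PRI1 in line 50, REV7 in line 28, MPH1 in line 10 and RNR3 in line 44.

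The 4 MCM symbols outside the helicase behaved separately. MCM1 (YMR043W), a MADS-box transcription factor of cell-cycle and mating genes, had an SD of 0.32 and ran from -0.63 in line 4 through 0.04 to 0.68 in line 27. The kinetochore genes MCM16, MCM21 and MCM22 had SDs from 0.16 to 0.19 and means from 0.02 to 0.11. MCM22 reached 0.50 in line 40, against a lowest value of -0.19 in line 42, and its mean of 0.11 ± 0.04 was not called (limma adjusted p = 0.0852). MCM21 and MCM22 had an r of 0.60. That of MCM16 was -0.02 with MCM22 and 0.04 with MCM21.

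RPA genes did not move as a unit, although the 3 products form 1 trimer. RFA2 (YNL312W), the middle subunit that the checkpoint phosphorylates, ran from -0.63 in line 45 through -0.22 to 0.74 in line 4. The difference of RFA2 in line 4 was 0.92 ± 0.27 (SE, limma adjusted p = 0.407) and was not called. RFA1, the large DNA-binding subunit, ran from -0.48 in line 24 through 0.09 to 0.49 in line 28, and RFA3 from -0.54 in line 44 through -0.11 to 0.37 in line 40. The r was -0.41 for RFA1 with RFA3, -0.30 for RFA1 with RFA2, and 0.33 for RFA2 with RFA3, and the last of these was -0.25 with the leading component removed. The means were -0.14 for RFA2, -0.08 for RFA3 and -0.01 for RFA1, with none called.

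POL30 (YBR088C), the gene of PCNA, varied most of all 73. It ran from -0.83 in line 44 through 0.09 to 1.50 in line 4, with an SD of 0.55, at the 89.9th percentile of all features. After line 4 it was highest in lines 40 (0.91), 6 (0.78) and 10 (0.78), and after line 44 lowest in lines 21 (-0.61) and 16 (-0.46). Its mean of 0.13 ± 0.11 was not called (limma adjusted p = 0.496). In line 4 it differed from the other lines by 1.43 ± 0.46 (SE) and in line 44 by -1.01 ± 0.50, and neither departure was called (limma adjusted p = 0.556 and 0.951).

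The loader subunits followed POL30 with smaller spread. RFC1 to RFC5 had SDs from 0.16 to 0.27, and the r with POL30 was 0.71 for RFC5, 0.70 for RFC3, 0.68 for RFC2, 0.51 for RFC1 and 0.39 for RFC4. With the leading component removed that of RFC1 was -0.37. RFC3 and RFC2, 2 of the small subunits, had the highest r within the loader (0.75), and both were highest in line 40 (0.63 and 0.57) and lowest in line 28 (-0.53 and -0.44). RFC5 and POL30 are neighbours on chromosome II. RFC1, the large subunit, was highest in line 6 (0.29) and lowest in line 8 (-0.43). No loader mean was called, the 5 means lay between -0.03 and 0.03, and 0 of the 6 clamp and loader genes had an unadjusted p under 0.05 by limma.

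Among the DNA polymerases, POL1 (YNL102W), the catalytic subunit of polymerase alpha that starts each new strand with primase, varied most. It ran from -0.67 in line 21 through 0.01 to 0.78 in line 10 (SD 0.44). Its partner POL12, the regulatory subunit, ran from -0.25 in line 40 through 0.05 to 0.53 in line 10 (SD 0.17), and the pair had an r of 0.58. POL2 (YNL262W), the catalytic subunit of polymerase epsilon, had an SD of 0.33, from -0.53 in line 8 through 0.04 to 0.45 in line 2. It neighbours ORC5 on chromosome XIV, and the r of the 2 genes was 0.59.

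Polymerase delta genes varied less. POL3, the catalytic subunit, had an SD of 0.22, POL31 0.19 and POL32 0.26, and both POL31 and POL32 were highest in line 19 (0.29 and 0.57). The 3 pairs had r from 0.38 to 0.64. POL4, the small polymerase used in end joining, stood apart from the rest with an SD of 0.14 and r between -0.10 and 0.23 with the other 6. Its mean of 0.10 ± 0.03 was the highest of the 7 and POL31's of -0.07 ± 0.04 the lowest, and limma called none, with POL4 at an unadjusted p of 0.00806.

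RAD27 (YKL113C), the flap nuclease that trims Okazaki fragments, had an SD of 0.37. It ran from -0.59 in line 42 through 0.06 to 0.94 in line 6, with 0.71 in line 10 and 0.63 in line 19. Its r with POL32 was 0.83. POL5 (YEL055C), which despite its name works in ribosomal RNA synthesis, had an SD of 0.45 and ran from -0.70 in line 21 through 0.01 to 0.98 in line 10. The difference of POL5 in line 10 from the other lines was 1.04 ± 0.40 (SE, limma adjusted p = 0.778). POL5 had an r of 0.84 with POL32, 0.81 with POL1 and 0.79 with MCM2, so this gene of ribosome biogenesis varied with genes that copy DNA. With the leading component removed these were 0.46, 0.20 and 0.36.

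**Figure D3:**
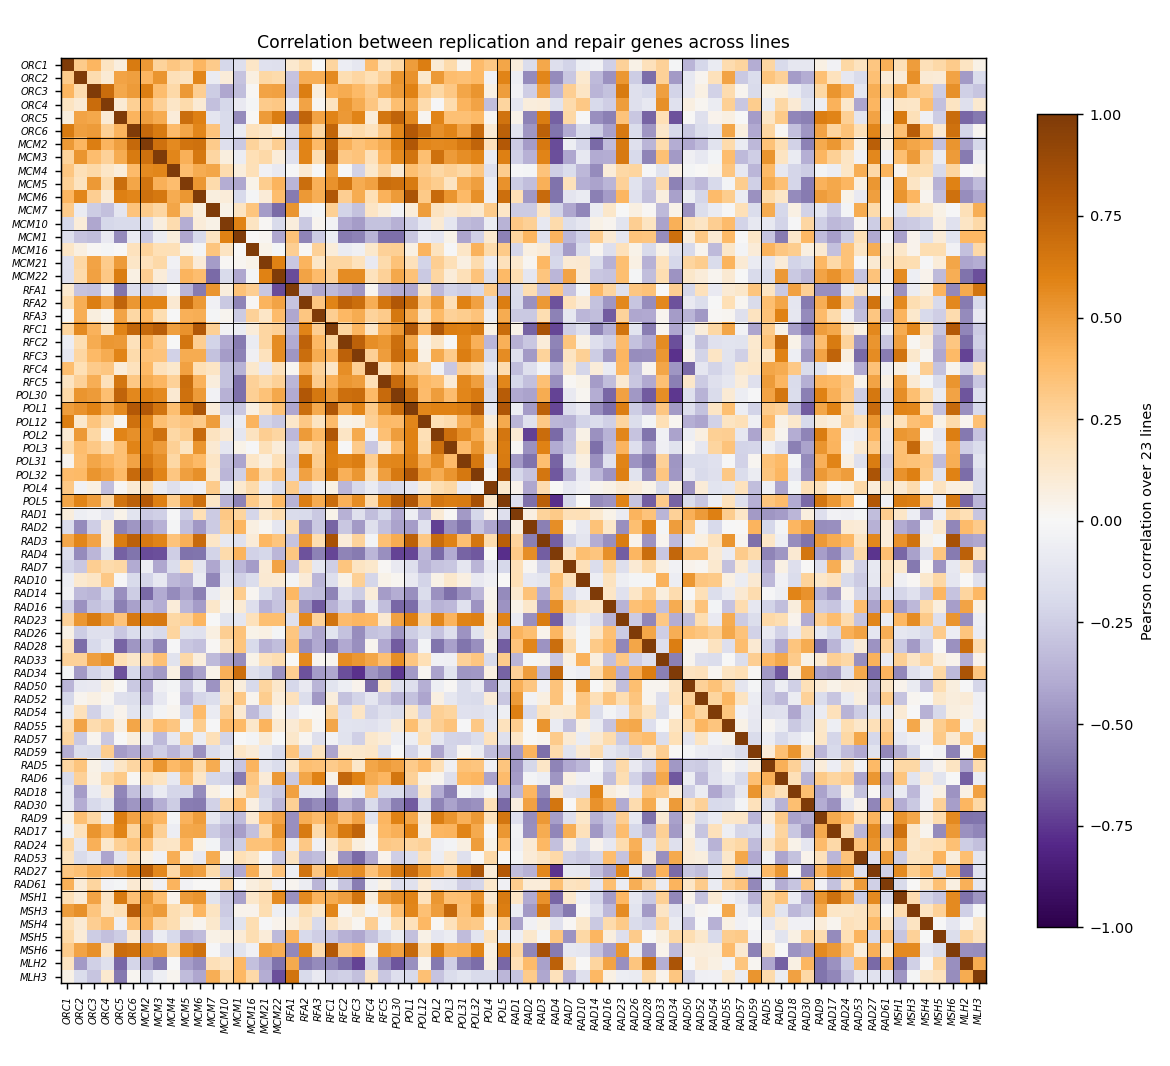
Pearson correlation over 23 lines between all pairs of 70 of the 73 genes, in the same order on both axes with lines between role groups. Among the 26 genes of ORC, helicase, clamp, loader and polymerases 278 of 325 pairs are positive, while RAD4 is negative against most of them, down to -0.72 with POL30.

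The 26 genes of ORC, helicase, clamp, loader and polymerases tended to vary together. The mean pairwise r was 0.32 over their 325 pairs, of which 278 were positive, against 0.07 over all pairs of the 73 genes and 0.00 over pairs of 2000 random features. By role, the mean was 0.47 for clamp and loader, 0.39 for the polymerases, 0.35 for ORC, 0.32 for the helicase with MCM10 and -0.13 for RPA. In repair it was 0.21 for the checkpoint, 0.12 for damage tolerance, 0.09 for recombination, 0.07 for excision repair and 0.01 for mismatch repair. These correlations are descriptions over 23 lines that share the reference and the array design.

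Much of this lay on the leading component of the whole table, which held 44.0% of its variance. With its sign set by POL30, itself 1 of the 26 genes, 25 of the 26 lay on the same side, MCM10 being the exception. So did 2 of the 3 RPA genes, RFA1 being on the other side, and 25 of the 30 replication genes kept for comparison. Of the repair genes, 10 of 13 in excision repair and 5 of 7 in recombination lay on the other. Sides were counted by sign alone, whatever the share: the component held 0.1% of the variance of POL4 and 0.5% of that of MCM7 and RAD10. The median share was 39.0% for excision repair and 5.9% for recombination. The other repair roles were split, with 3 of 4 checkpoint, 2 of 4 damage tolerance and 5 of 9 mismatch repair genes on the side of POL30. Over all features the split was 3101 and 3233. The component held 83.4% of the variance of POL5, 79.6% of RAD4, 75.1% of POL30, 69.4% of POL1 and 68.0% of RAD27, with RAD4 on the other side. The median share was 25.3% for the 73 genes and 17.6% for all features. With the component removed, the mean pairwise r was 0.07 for the 26 genes and 0.04 for all 73. By role it was 0.09 for clamp and loader, 0.09 for ORC and 0.14 for the polymerases. It was 0.34 for the 6 ring subunits MCM2 to MCM7.

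The lines at both ends of the leading component had wide columns, and ribosomal protein genes were far from 0 in most of them. Lines 4, 6 and 10 scored highest on the component and lines 44, 45 and 21 lowest. Their column SDs were between 0.45 and 0.58, among the 7 widest of the 23. The median of 138 cytosolic ribosomal protein genes was 1.40 in line 10, 1.06 in line 4 and 0.17 in line 6, and -1.26 in line 44, -1.05 in line 45 and -0.90 in line 21. It was also far from 0 in lines not at either end, at 1.07 in line 40, 0.74 in line 8, -0.88 in line 7, -0.78 in line 28 and -0.75 in line 1. The part of culture state or array in the replication gene values was not tested.

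**Figure D4:**
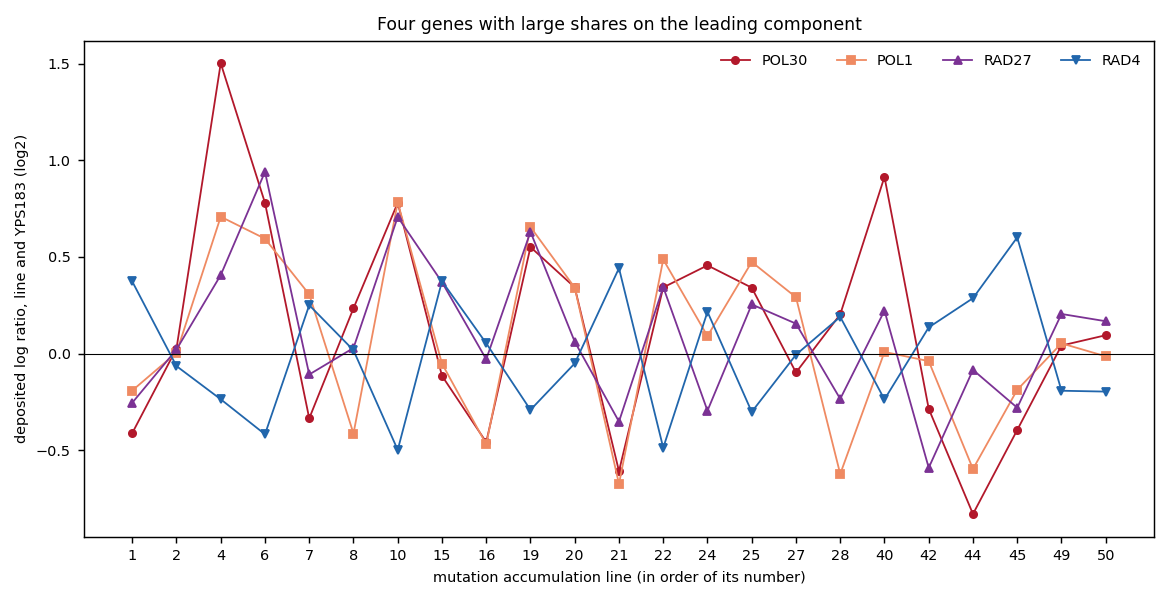
Deposited log ratio (vertical axis, read as log2) of POL30, POL1, RAD27 and RAD4 in the 23 lines (horizontal axis, in order of number, joined only to guide the eye). RAD4 is low at -0.50 in line 10 and high at 0.60 in line 45, where the other 3 are on opposite sides of 0 from it.

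The excision repair genes split over both sides. RAD4 (YER162C), the damage sensor homologous to human XPC, ran from -0.50 in line 10 through -0.01 to 0.60 in line 45 (SD 0.31). RAD23, which binds Rad4 and also carries ubiquitinated proteins to the proteasome, ran from -0.38 in line 44 through -0.10 to 0.39 in line 19. The 2 partners had an r of -0.66, and of -0.08 with the leading component removed. RAD4 had an r of -0.78 with POL5 and -0.77 with RAD27, and with the leading component removed these were 0.19 and -0.12.

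RAD3 (YER171W), the TFIIH helicase that serves both transcription and repair, ran with the replication genes, with an r of 0.84 with MSH6 and RFC1 alike and values from -0.32 in line 44 through 0.10 to 0.51 in line 22. RAD2, which cuts on the 3′ side of the lesion, ran from -0.44 in line 22 through -0.01 to 0.20 in line 27, with an r of -0.55 with RAD3. RAD34, a paralog of RAD4, and RAD28, the homolog of human CSA, lay on the side of RAD4. RAD28 ran from -0.51 in line 40 through -0.07 to 0.55 in line 21. RAD7 and RAD16, which work together on untranscribed DNA, had an r of 0.25 and means of -0.11 and -0.08, not called. RAD10, RAD14, RAD26, RAD33 and RAD34 had SDs from 0.17 to 0.22 and means within 0.07 of 0.

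Among the recombination genes, most varied little between lines. RAD52, a mediator of strand exchange that also anneals single strands, stayed between -0.38 and 0.33 in all lines but line 10, where it was at -0.75. That difference was -0.75 ± 0.20 (SE, limma adjusted p = 0.312) and was not called. RAD54, a DNA translocase, had an SD of 0.12, as did RAD55. With ORC1 and MSH4 these had the 4 lowest SDs of the 73. RAD50, RAD57 and RAD59 had SDs from 0.14 to 0.15. RAD55 and RAD57, whose products form a dimer, had an r of 0.05.

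The damage tolerance genes, which let forks pass lesions, also varied little. RAD5, RAD18 and RAD30 had SDs from 0.14 to 0.15. RAD6, the ubiquitin conjugase, ran from -0.31 in line 42 through 0.01 to 0.60 in line 40. RAD30, the lesion-bypass polymerase eta, was highest in line 45 at 0.42 and lay with RAD4 on the leading component. The 4 means were between 0.00 for RAD18 and 0.09 for RAD5, and limma called none, with RAD5 and RAD30 at an unadjusted p under 0.05.

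Checkpoint genes held the 1 departure of a single line with an adjusted p under 0.05 among the 73 genes, against 0.0817% of all feature and line pairs. It did not reach the difference of 1 also required for a call. RAD24 (YER173W), which loads the checkpoint clamp at damaged DNA, was at -0.69 in line 42, against -0.08 to 0.48 in the other lines, whose mean was 0.07 ± 0.12 (SD, n = 22). The difference was -0.75 ± 0.14 (SE, limma adjusted p = 0.0299 over all features and lines). The value of line 42 lay outside the range of the others. The adjusted p was 0.0635 under quantile normalization. In the same line the median difference was 0.05 for chromosome V and -0.01 for the 10 nearest features, which ran from -0.42 to 0.22.

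RAD17, a subunit of the clamp that RAD24 loads, was lowest in line 28, at -0.88, against -0.30 to 0.39 in the other lines. That difference was -0.88 ± 0.21 (SE, limma adjusted p = 0.176), and was not called. RAD9, the adaptor that relays the signal, ran from -0.27 in line 8 through 0.07 to 0.60 in line 40. RAD53, the effector kinase, ran from -0.26 in line 40 through 0.10 to 0.55 in line 28. The means were 0.11 for RAD9, 0.09 for RAD53, 0.03 for RAD24 and -0.04 for RAD17, with none called.

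Over all 1679 gene and line pairs, 1 had an adjusted p under 0.05 by limma, against 0.0817% of all pairs in the table. With a difference of 1 or more also required, 0 pairs were called, against 0.068% of all pairs, and 66 pairs (3.93%) had an unadjusted p under 0.05, against 5.34%. A difference of 1 or more was measured in 3 pairs, POL30 in lines 4 and 44 and POL5 in line 10. Over all features it was measured in 3452 of 145682 pairs. Lines 7, 15, 20, 49 and 50 had no gene of the 73 that differed by 0.5 or more. Over all features the share in those lines was between 2.81% (line 15) and 8.86% (line 20). Line 44 had 10 (13.7%, against 19.2% of all features), line 10 had 9 (12.3%, against 26.2%) and line 40 had 9 (12.3%, against 19.1%). In simulated data with the SD of each of the 6334 features, an adjusted p under 0.05 alone recovered 0 of 50 departures of 0.5. It recovered 7 of 50 of 1 and 40 of 50 of 2, so small departures were mostly not detectable there. The simulated noise was normal, independent between features and equally wide in every line, and planted values carried none. The measured columns share a leading component and differ in width, so recovery in them may differ.

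**Figure D5:**
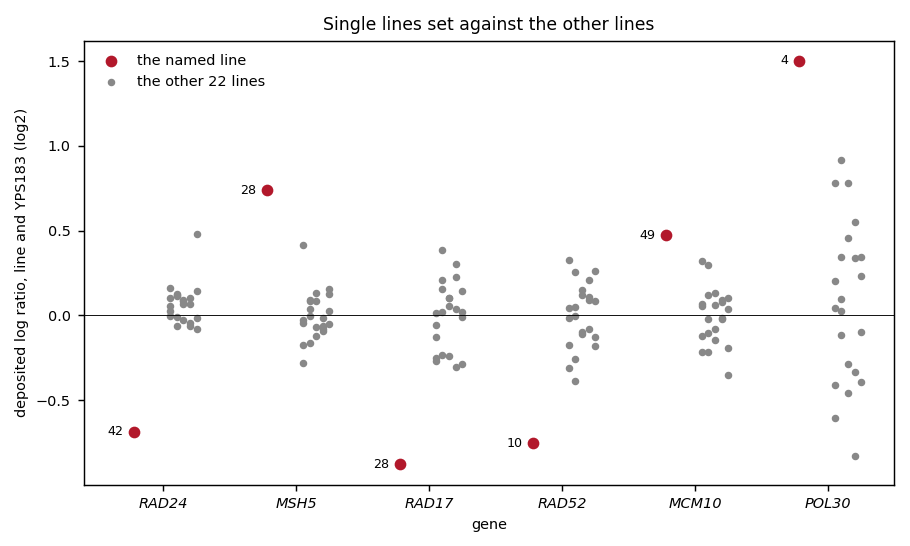
Deposited log ratio (vertical axis, read as log2) of 6 genes in the line with the departure described in the text (red, with its number) and in the other 22 lines (grey, spread sideways only to separate points). RAD24 in line 42, at -0.69, is the one with an adjusted p under 0.05.

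Mismatch repair genes included both variable and flat members. MSH6, which takes part in the recognition of base mismatches, ran from -0.45 in line 8 through 0.07 to 0.49 in line 25 (SD 0.23). MSH3, which takes part in the recognition of loops, ran from -0.36 in line 44 through -0.08 to 0.29 in line 25 (SD 0.17). MSH1, which acts in mitochondria, had an SD of 0.30 and ran from -0.52 in line 44 through -0.02 to 0.67 in line 2. MSH3 had the lowest mean at -0.05, and the means of MLH2 and MLH3 were -0.00 and 0.00. Limma called none of the 9 means, with 2 at an unadjusted p under 0.05.

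The meiotic pair MSH4 and MSH5, which stabilise crossover intermediates, differed in spread. MSH4 (YFL003C) had an SD of 0.11 and ran from -0.15 in line 22 through 0.09 to 0.27 in line 6. MSH5 (YDL154W) was at 0.74 in line 28, against -0.28 to 0.42 in the other lines, and the pair had an r of -0.00. The difference of MSH5 in line 28 was 0.74 ± 0.16 (SE, limma adjusted p = 0.0991). The adjusted p was 0.0420 under quantile normalization and 0.0488 with lines 1 and 45 averaged.

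Outside ORC, the helicase ring, and the clamp and loader, binding partners shared their variation only in part. All pairs within those groups were positive, and they are not among the pairs counted next. A set of 22 pairs whose products bind or act in 1 step was picked from textbook knowledge. Of these, 17 had a positive r and 5 a negative one, with a median of 0.24. Over all pairs of the 73 genes 57.0% were positive, and over pairs of random features 49.9%. Among the 22, the lowest r was that of RAD4 and RAD23, and POL31 and POL32 had 0.64.

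Replication and repair genes with other names were put through the same tests. Of 30 other replication genes, 1 (3.33%) was called for its mean, against 9.22% of all features: SLD7 (-0.12 ± 0.03, limma adjusted p = 0.0247), a partner of Sld3 in origin firing. That count was 6 with array weights and 2 without line 16 or line 42. Of 50 other repair genes, 4 (8.0%) were called: RDH54 (0.47 ± 0.15), a Rad54-like translocase, SSL2 (0.14 ± 0.04) and the checkpoint kinase gene CHK1 (0.11 ± 0.03) were positive, and REV3 (-0.11 ± 0.03), the catalytic subunit of polymerase zeta, was negative. These 4 had limma adjusted p between 0.0188 and 0.0436, and RDH54 ran up to 3.05 in line 10. The count of repair genes ran from 2 to 9 over the other settings and from 1 to 6 with 1 line left out. Over all features these counts ran from 467 to 1298, the latter with array weights, and from 454 to 682. The repair count was 1 without line 2, 7, 20, 21 or 25. It was 2 without line 1, 15, 16, 19, 24, 27, 28, 42, 45 or 50. Single-line departures called in these lists were 3 of the 1150 pairs of a repair gene and a line, against 0.068% of all pairs. They were all in line 10, whose column was the widest (SD 0.58): RDH54 by 2.70 ± 0.48, the end-joining factor NEJ1 by 1.92 ± 0.33 and the helicase gene MPH1 by 1.38 ± 0.21 (SE, limma adjusted p = 0.0170, 0.0120 and 0.00350).

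Genes of nucleotide supply varied with the replication genes in part. None of 12 was called for its mean by limma, with 1 at an unadjusted p under 0.05, RNR2. RNR1, the large subunit of ribonucleotide reductase, had an SD of 0.75 and ran from -1.53 in line 21 through -0.09 to 1.43 in line 10. The leading component held 88.0% of its variance and 76.5% of that of CDC21, thymidylate synthase. RNR3 and HUG1 stayed within -0.68 to 0.36 and -0.17 to 0.31. Other comparison genes ranged more widely, among them RNR4 from -0.60 in line 42 to 0.83 in line 40. The repair gene PHR1 ran from -1.43 in line 10 to 1.10 in line 44. A damage response was not tested.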

How the data were processed

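Per the labels, cDNA of each line and of YPS183 was labelled with 2 dyes and hybridized to spotted-oligo arrays. The authors deposited 1 table of normalized log ratios, read here as log2. The sources used here do not state the background correction, normalization, spot filtering or averaging. The arrays' number limits the precision.

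Of 6334 features, 5819 were paired with R64 genes by systematic name (5623 exactly, 194 after a hyphen was restored, 2 by synonym), and 515 were not. Means over lines (intercept alone) and single lines against the other 22 were tested with limma 3.58.1 in R 4.3.3 (eBayes, two-sided, Benjamini-Hochberg over all features, or all features and lines), called at an adjusted p under 0.05, departures also with a difference of 1 or more. The p-values measure the spread between these columns. A lone line was assumed to vary like the others. Spread and correlation (Pearson, 23 lines) are descriptions. In simulated data with noise independent between features the test of the mean recovered 24 of 50 shifts of 0.2 and 36 of 50 of 0.3.

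Members and lists were chosen with earlier results of these data known. All members were described by role, with values for called genes, departures, the 6 highest and 3 lowest SDs and extreme means. The values of 3 genes are not reported here, and figures show the other 70, while counts and medians cover all 73. Other values, and pairs with the highest or lowest correlation, were chosen after they were seen. Planned promoter motif counts were not made, since promoter sequences were not used here. Python 3.11.15, numpy 2.4.6, pandas 2.3.3 and matplotlib 3.10.9 were used.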

Additional observations from a re-analysis of the deposited data

How the results depend on the processing

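The alternatives were array weights, quantile normalization, scaling to a common median absolute deviation, a robust prior, lines 1 and 45 averaged, features with a gene only, subtraction of chromosome medians, other size thresholds and each line left out. RAD61 and RAD1 kept their sign and their call under each alternative run for the mean, with adjusted p up to 0.00813 and 0.0362. The number of genes called for the mean was 11 with array weights and 2 to 3 with 1 line left out, and 2 under the others. Called pairs of gene and line were 0 with a difference of 1 or more, and 1 with no minimum or a minimum of 0.5. Pairs with an adjusted p under 0.05 numbered 2 with lines 1 and 45 averaged, and 1 under the others, which was MSH5 in line 28 in place of RAD24 in line 42 under quantile normalization. The median SD of the 73 genes lay between 0.19 and 0.22 over the alternatives and between 0.20 and 0.21 with 1 line left out, where that of all features lay between 0.25 and 0.26. Removal of the leading component moved the mean pairwise correlation of ORC to 0.0870 and of clamp and loader to 0.0920, and the cause was not tested. Other correlations moved by less than the SD of their pairs. No paired analysis was possible because the lines form a single group. Signal over background was not used here, so dim spots were not set apart.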
